A study of Mus musculus with 24 samples.

Results

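The genes examined encode the potassium channels of the mouse brain, taken as every protein-coding row of the deposited expression table whose gene name begins with Kcn. There were 94 such genes among the 54532 genes of the table, of which 22046 are protein-coding. RNA of brain hemispheres came from 24 male wild-type C57Bl6 mice in 4 groups of 6, aged 8 to 12 weeks by the study's methods, and each library was made from 1 mouse. All mice carried an osmotic minipump for 2 weeks, filled with saline (vehicle) or with angiotensin II at 0.7 mg/kg/day, a pressor peptide that raises blood pressure. The other treatment was human amnion epithelial cells (AEC), cells of the amnion of term placentae, given by tail vein injection after the pump was placed. This gave the groups vehicle, angiotensin II, vehicle + AEC, and angiotensin II + AEC, and by the methods the groups without cells were injected with saline. Infusion of angiotensin II is a model of hypertension made in male mice of 1 strain, and the brain RNA is a mixture of all cell types of the tissue.

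Potassium channels let potassium ions cross the membrane and set the resting potential, the shape of the action potential and the firing rate of neurons. Voltage-gated channels open on depolarisation, inward rectifiers pass current best near the resting potential, two-pore channels carry leak current, and calcium-activated channels tie potassium current to calcium entry. Electrically silent modifier subunits form channels only together with other voltage-gated subunits, and auxiliary subunits carry no pore but change gating or trafficking. In brain, inward rectifiers of astrocytes are also known to clear potassium from the extracellular space, and those of vascular mural cells to couple metabolism to blood flow.

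By gene name, 30 genes encode voltage-gated pore subunits, 10 silent modifiers, 15 inward rectifiers, 14 two-pore channels, 5 calcium-activated channels, 3 sodium-activated or pH-gated channels and 16 auxiliary subunits, and 1 (Kcnrg) falls outside these families. A feature that the choice by name did not use is the coding sequence of the selectivity filter, the narrow part of the pore where potassium ions are bound. The longest coding transcript of each gene in GENCODE M21 (build GRCm38) was searched in frame for 5 successive codons of the potassium channel signature (threonine or serine, then valine, isoleucine or leucine, then glycine, then tyrosine, phenylalanine or leucine, then glycine). A first search with threonine alone in the opening codon had missed Kcnj14 and most Kcnh and Kcnn genes, and it was widened for that reason. The match was found once in 30 of 30 voltage-gated genes, 10 of 10 silent modifiers, 15 of 15 inward rectifiers, 5 of 5 calcium-activated genes and 3 of 3 sodium-activated or pH-gated genes. Of the 14 two-pore genes, 12 had 2 matches and 2 (Kcnk1 and Kcnk7) had 1, and two-pore subunits are known to carry a pair of pore loops. None was found in the 16 auxiliary genes or in Kcnrg, and 213 of 21441 other protein-coding genes (0.993%) had at least 1.

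The matches of 9 genes that the levels and comparisons turn on are given as coding strand from 5′ to 3′, read from the GENCODE M21 transcripts with GRCm38 coordinates. Capitals mark the 5 codons of the match, with flanking coding bases in lower case. For Kcnk12 the second of the 2 matches is shown.
Kcna1 (chr6:126642210-126642260, minus strand, exon 2 of 2): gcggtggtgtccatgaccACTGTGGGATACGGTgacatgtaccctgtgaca
Kcna2 (chr3:107105206-107105256, plus strand, exon 3 of 3): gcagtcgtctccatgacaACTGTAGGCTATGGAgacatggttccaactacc
Kcnf1 (chr12:17175043-17175093, minus strand, exon 1 of 1): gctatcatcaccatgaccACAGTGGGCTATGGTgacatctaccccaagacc
Kcnh3 (chr15:99232911-99232961, plus strand, exon 8 of 15): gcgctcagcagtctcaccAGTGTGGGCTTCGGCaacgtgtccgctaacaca
Kcnj4 (chr15:79485349-79485399, minus strand, exon 2 of 2): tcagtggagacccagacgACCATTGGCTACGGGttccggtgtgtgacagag
Kcnk1 (chr8:126025311-126025361, plus strand, exon 2 of 3): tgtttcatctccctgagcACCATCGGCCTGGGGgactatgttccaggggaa
Kcnk12 (chr17:87746435-87746485, minus strand, exon 2 of 2): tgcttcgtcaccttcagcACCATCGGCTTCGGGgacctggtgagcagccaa
Kcnma1 (chr14:23528395-23528445, minus strand, exon 8 of 31): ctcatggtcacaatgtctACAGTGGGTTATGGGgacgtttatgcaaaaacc
Kcnt1 (chr2:25894349-25894399, plus strand, exon 11 of 32): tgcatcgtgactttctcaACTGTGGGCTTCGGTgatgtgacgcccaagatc

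The fourth codon of the match split the families. It read tyrosine in 22 voltage-gated genes and phenylalanine in the 8 genes of the Kcnh group, to which Kcnh2, a gene of cardiac and neuronal repolarisation, and Kcnh3 belong. It read tyrosine in 13 inward rectifiers, and phenylalanine in Kcnj8 and Kcnj11, the pores of ATP-sensitive channels. The 3 sodium-activated or pH-gated genes had phenylalanine. Among two-pore genes, 14 matches in 11 genes read phenylalanine, 9 read tyrosine and 3 (Kcnk1, Kcnk6 and Kcnk7) read leucine. Kcnk1, the most expressed two-pore gene, was among those with leucine. Members on chromosome 18 were left out of this codon count.

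Levels are in the deposited FPKM, which divides a gene's fragment count by gene length and by library size, so that different genes can be compared per length. Every value (100%) was a whole multiple of 1 fragment, which gives back the reads under it. Totals were 16536449 to 25308700 fragments per mouse, with medians of 17979816.5 in vehicle, 18625085 in angiotensin II, 18622102 in vehicle + AEC and 18914549 in angiotensin II + AEC. Within groups, no library was a copy of another (chi-square of 3.38 to 109.9 per gene between pairs). In 6 libraries (vehicle 5 and 6, angiotensin II 5, vehicle + AEC 6, angiotensin II + AEC 5 and 6) the FPKM of all genes summed to 338334 to 348597, against 277116 to 298301 in the other 18. The labels and the paper do not name these sets. Neuronal markers (Snap25, Syt1, Rbfox3 and Stmn2) were above 0 in every mouse and summed to 482.6 to 542.2 FPKM. Pituitary markers (Gh, Prl, Cga and Pou1f1) summed to 0.0134 to 24.3 FPKM in 3 groups and reached 1229 FPKM in 1 mouse of the angiotensin II group.

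Of the 94 genes, 28 had a mean of at least 10 FPKM over the 24 mice, 67 of at least 1 FPKM and 11 of under 0.1 FPKM. Together they held 0.597% to 0.627% of fragments across the 18 libraries, against 0.542% to 0.558% across the other 6. Their summed level was 1022 FPKM, of which voltage-gated pore subunits held 33.7%, auxiliary subunits 24.9%, inward rectifiers 19.2%, two-pore genes 10.9%, silent modifiers 6.91%, sodium-activated and pH-gated genes 2.43% and calcium-activated genes 1.94%. Kcne1 had 0 reads in every mouse, and Kcnj1 and Kcnk16 had at most 2. These 3 genes were not tested, and 91 passed the filter of a value above 0 in at least 6 mice. In bulk RNA, fewer cells of a type and less RNA per cell cannot be told apart.

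**Figure D1:**
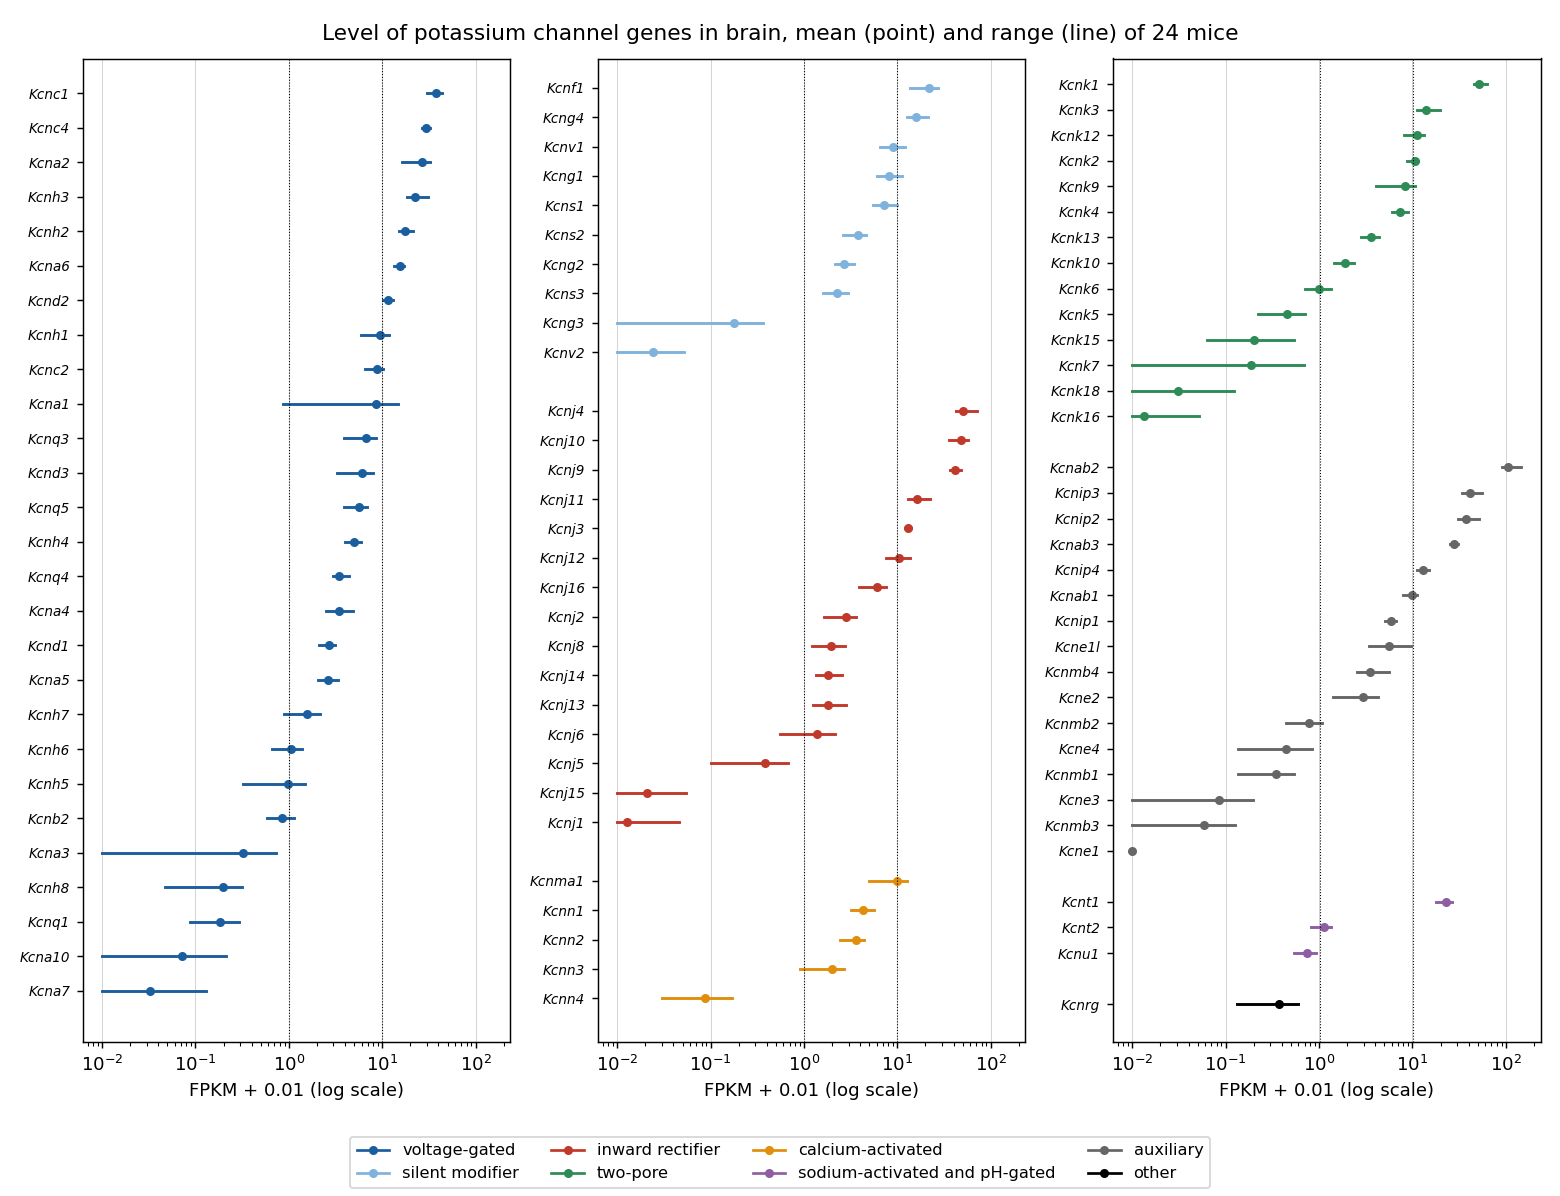
Level of the potassium channel genes that are reported, grouped by family. The horizontal axis gives FPKM + 0.01 on a log scale, points are means of 24 mice, lines run from the lowest to the highest mouse, and dotted lines mark 1 and 10 FPKM. Kcnab2 (106.4 FPKM) and Kcnk1 (52.0) are among the highest, and the line of Kcna1 is long for its level, from 0.852 to 14.7 FPKM.

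Among voltage-gated genes, Kcnc1 and Kcnc4, of the Kcnc group that serves fast-spiking neurons, were high. Kcnc2 of the same group was lower, with medians of 9.43 FPKM in the 18 libraries and 7.40 in the 6. Kcnc1 had a median of 39.0 FPKM, from 30.2 to 43.1, and Kcnc4 of 29.7, from 26.8 to 32.4. Kcna2, an axonal subunit of low-threshold channels, had 29.5 FPKM (16.2 to 32.4). The ranges of Kcnc4 and Kcna2 overlapped in the 18 libraries (27.6 to 32.4 and 26.8 to 32.4 FPKM). In the 6 libraries of higher total FPKM Kcnc4 (26.8 to 28.7 FPKM) lay above Kcna2 (16.2 to 17.9). The order of these 2 genes was not tested. Kcnd2, an A-type channel of dendrites, had 11.4 FPKM (10.1 to 13.1). At the low end, Kcna10 and Kcna7 had means of 0.0626 and 0.0222 FPKM. Of the silent modifiers, Kcnf1 was highest (median 22.8 FPKM, from 13.8 to 27.2), followed by Kcng4 (15.03, from 12.6 to 21.5).

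Among inward rectifiers, Kcnj4, Kcnj10 and Kcnj9 stood well above the others. Kcnj4, a strong rectifier of forebrain neurons, had a median of 47.6 FPKM (42.0 to 72.1). Kcnj10, the channel through which astrocytes buffer potassium, had 50.1 FPKM (36.1 to 56.8), and Kcnj9, a G protein-gated subunit, 40.4 (36.3 to 48.3). The 3 ranges overlap over all mice, but in the 6 libraries of higher total FPKM Kcnj4 (56.2 to 72.1 FPKM) lay above Kcnj10 (36.1 to 44.4). Kcnj16, which forms channels with the Kcnj10 subunit, had 6.23 FPKM (3.85 to 7.61). Of the other G protein-gated subunits, Kcnj3 had 12.8 FPKM, Kcnj6 had 1.55 and Kcnj5 had 0.358. Kcnj3 varied least among these, from 11.9 to 14.0 FPKM over all mice. Of the ATP-sensitive pores, Kcnj11 had 14.7 FPKM and Kcnj8, the form of vascular mural cells, 1.83. Kcnj13, a channel of choroid plexus epithelium, had 1.72 FPKM (1.23 to 2.77), resting on 29 to 73 reads.

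Kcnk1, a weakly conducting leak channel, led the two-pore genes with 50.4 FPKM (45.3 to 63.2). The acid-sensitive channels Kcnk3 and Kcnk9 had 13.5 and 9.35 FPKM, and the mechano- and lipid-sensitive Kcnk2, Kcnk4 and Kcnk10 had 10.7, 7.28 and 1.91. Kcnk12 had 11.1 FPKM (8.09 to 13.3) and Kcnk13, known from microglia, 3.53 (2.77 to 4.40). Among calcium-activated genes, Kcnma1, the large-conductance channel, had 11.3 FPKM (4.95 to 12.8), and its median was above those of the small-conductance genes Kcnn1 (4.35), Kcnn2 (3.81) and Kcnn3 (2.24). Kcnn4, the intermediate-conductance gene of blood cells, had 0.0745. Kcnt1, a sodium-activated channel, had 23.9 FPKM against 1.19 for Kcnt2. The auxiliary gene Kcnab2, a cytoplasmic partner of Kcna subunits, was the highest of the 94 with 97.5 FPKM (90.1 to 145.5), and the Kcnd partners Kcnip3 and Kcnip2 had 37.7 and 34.8.

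The use of strand in counting is not stated, and 41 of the 94 genes overlap another gene with reads by the coordinates of the table, 37 of them one on the opposite strand. The antisense rows Kcnmb4os2, Kcnmb4os1, Kcnd3os, Kcnab3os and Kcnq1ot1 were not counted as members and had means of 0.155 to 1.68 FPKM. The mean of Kcnq1, 0.172 FPKM, was close to that of Kcnq1ot1, 0.155 FPKM, and reads of such pairs cannot be told apart without strand. Kcnj13 overlaps Gigyf2 on the opposite strand.

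The first comparison asked whether angiotensin II changed the expression of channel genes. The test was limma on log2(FPKM + 0.1), the 4 groups being fitted jointly, and p-values were adjusted by Benjamini-Hochberg across 27286 genes and measure the spread between mice. By this test 0 of the 91 genes had an adjusted p under 0.05. The same held for all 27286 genes tested, here and in the other comparisons, so this count does not set channel genes apart. Of the 91, 1 (1.099%) had an unadjusted p under 0.05. Of all genes tested, 2.21% had an unadjusted p under 0.05 in this comparison, and 1 gene is too few to tell the channel genes from this background. The gene was Kcnk12, a two-pore subunit. Its level in vehicle mice had a lowest value of 9.85, a median of 11.9 and a highest of 13.2 FPKM, and in angiotensin II-infused mice 8.09, 10.3 and 11.3. All 6 angiotensin II-infused mice lay below the vehicle mean, although the groups overlap. The log2 fold change was -0.22 (standard error 0.0944, limma p = 0.0267, adjusted p = 0.994), and the exact permutation test between the groups (two-sided) gave p = 0.0541. In the 18 libraries alone the difference was -0.14 with a limma p of 0.161, so the unadjusted call was lost there.

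Among genes with a mean of at least 0.1 FPKM, the next lowest p-values belonged to Kcne1l, Kcng1 and Kcns2, none under 0.05. For Kcne1l, a single-span auxiliary subunit, vehicle mice averaged 6.62 ± 2.14 FPKM and angiotensin II-infused mice 4.91 ± 1.22 (SD, n = 6 each). Its log2 difference was -0.39 (standard error 0.206, limma p = 0.0676, exact permutation p = 0.117), and -0.28 (standard error 0.104, limma p = 0.0139, adjusted p = 0.99997) with the library set as a term in the fit. Without the 6 libraries it was -0.25 with a limma p of 0.0763. Kcng1, a silent modifier, had a log2 difference of -0.22 (limma p = 0.112, exact permutation p = 0.113), and Kcns2, another, of 0.18 (limma p = 0.118, exact permutation p = 0.0779). For Kcns2 all 6 angiotensin II-infused mice lay above the vehicle mean. Without the 6 libraries the log2 differences were smaller in size, at -0.11 for Kcng1 and 0.10 for Kcns2.

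The most expressed genes of each family (15 genes, 2 per family and Kcnrg) had log2 fold changes of -0.12 to 0.20 with angiotensin II, and 0 had an unadjusted p under 0.05 in limma (lowest adjusted p = 0.994). Kcnc1 was at 0.04 (standard error 0.0842). The differences were -0.10 (0.123) for Kcnj4 and 0.12 (0.112) for Kcnj10, and -0.08 (0.0795) for Kcnk1. Kcnma1 was at 0.20 (0.294) and Kcnab2 at -0.07 (0.139). With the library set as a term all 15 lay between -0.15 and 0.05, Kcnma1 among them at 0.01. In the other 3 comparisons between groups and in the interaction 0 of the 15 had an unadjusted p under 0.05 in limma.

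By family, the median log2 fold change with angiotensin II was 0.07 for the 30 voltage-gated genes, -0.02 for silent modifiers, -0.00 for inward rectifiers, 0.03 for two-pore genes, 0.08 for the 5 calcium-activated genes and -0.04 for auxiliary genes, against 0.02 for all genes tested. With the library set as a term the medians were -0.01 for voltage-gated, -0.01 for inward rectifier, -0.00 for two-pore, 0.04 for calcium-activated and 0.01 for auxiliary genes. The direction of the voltage-gated, two-pore and auxiliary medians turned with the library set. For the 28 genes with a mean of at least 10 FPKM, fold changes lay between -0.22 and 0.16, with a median 95% half-width of 0.23 on the log2 scale, or 0.0958 with the library set as a term. Standard errors in the fit without that term ran from 0.0475 to 0.204, so the precision differed between genes.

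**Figure D2:**
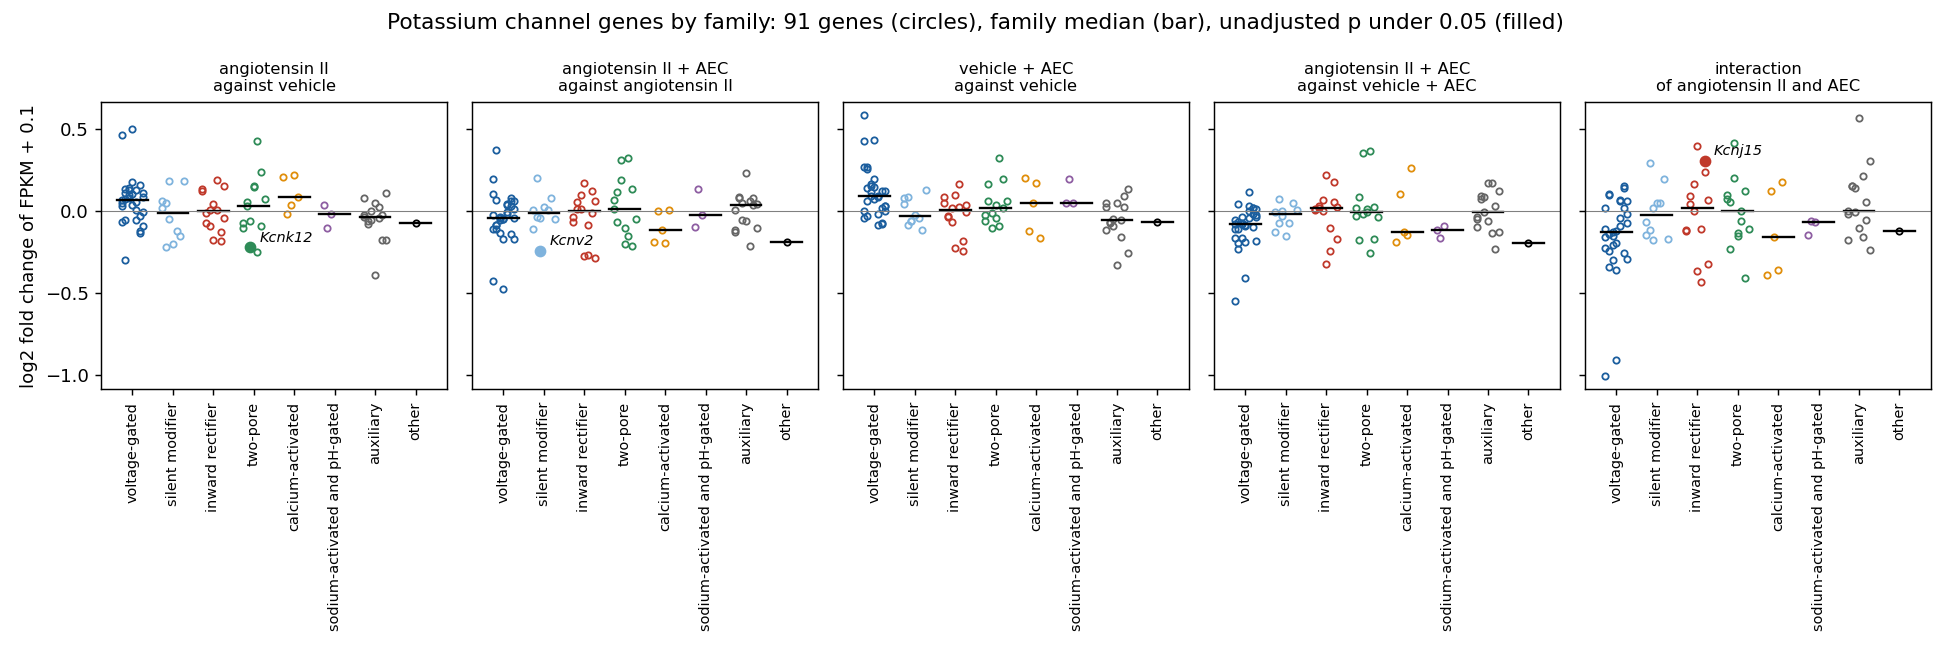
Log2 fold change of FPKM + 0.1 for the 91 tested genes in each comparison, by family. Circles are genes, bars family medians, and filled circles genes at an unadjusted p under 0.05 in limma (Kcnk12, Kcnv2 and Kcnj15, 1 in each of 3 comparisons). The bar of the voltage-gated genes lies at 0.07 in the first panel and at -0.13 in the interaction. With the library set as a term, which is not drawn, these medians were -0.009 and -0.008.

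The second comparison, of angiotensin II + AEC with angiotensin II, addressed the effect of the cells during infusion. Of 91 genes, 0 had an adjusted p under 0.05 and 1 (1.099%) an unadjusted p under 0.05, beside 2.54% of all genes tested. This was Kcnv2, a silent modifier, at 0 to 2 reads per mouse with angiotensin II + AEC and 1 to 4 with angiotensin II (limma adjusted p = 1). Counts of up to 3 reads cannot be told from 0, so no fold change is given, and the gene was outside the rule for named genes. Kcnk12 had 10.02, 11.2 and 13.3 FPKM (lowest, median and highest) with angiotensin II + AEC, a log2 difference of 0.19 from angiotensin II alone (standard error 0.0944, limma p = 0.0598, exact permutation p = 0.0931). The 2 comparisons share the angiotensin II mice, so that this value is not independent of the one above. Without the 6 libraries the difference of Kcnk12 from angiotensin II alone was 0.08.

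For Kcnj16, angiotensin II-infused mice averaged 6.56 ± 0.669 FPKM, and those also given AEC 5.46 ± 1.25 (SD, n = 6 each). The log2 difference was -0.29 (standard error 0.148, limma p = 0.0642, exact permutation p = 0.0887), and -0.20 with the library set as a term (limma p = 0.00872, adjusted p = 0.999997). Without the 6 libraries it was -0.14 with a limma p of 0.0790. Kcnj10, with which it pairs in astrocytes, had 50.5 ± 4.92 and 48.4 ± 6.27 FPKM (SD, n = 6) in the same groups. Kcnk5 had 0.409 ± 0.0707 and 0.532 ± 0.1004 FPKM (SD, n = 6), a log2 difference of 0.31 (limma p = 0.119, exact permutation p = 0.0368), and Kcng1 a difference of 0.20 (limma p = 0.146, exact permutation p = 0.206). Kcnk5 and Kcng1 had log2 differences of 0.34 and 0.06 in the 18 libraries alone. Among families, the median was -0.12 for calcium-activated genes and 0.04 for auxiliary genes, beside -0.02 for all genes. With the library set as a term these 2 family medians were -0.031 and -0.022, and in the 18 libraries alone -0.029 and 0.006.

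In the comparison of vehicle + AEC with vehicle, which shows the cells without angiotensin II, 0 of 91 genes had an unadjusted p under 0.05 in limma and 0 an adjusted p under 0.05, beside 2.41% of all genes at the unadjusted threshold. By voom on the recovered reads 1 gene had an unadjusted p under 0.05, beside 2.36% of all genes, and this was Kcnj15, with at most 5 reads per mouse. The lowest limma p-values among genes of at least 0.1 FPKM were those of Kcnt2 (log2 difference 0.19, exact permutation p = 0.0519), Kcne1l (-0.33, exact p = 0.180), Kcnh5 (0.42, exact p = 0.139) and Kcnh6 (0.25, exact p = 0.121). Kcnt2, a sodium-activated channel, had 0.810, 1.13 and 1.25 FPKM (lowest, median and highest) with vehicle and 1.17, 1.24 and 1.33 with vehicle + AEC. The 6 vehicle + AEC mice lay above the vehicle mean, but 2 of the vehicle mice are among the 6 libraries of higher total FPKM. The log2 difference of Kcnt2 between those 6 libraries and the other 18 was -0.24. Within the 18 libraries alone the differences with vehicle + AEC were smaller in size. They were 0.09 for Kcnt2, -0.15 for Kcne1l, 0.13 for Kcnh5 and 0.07 for Kcnh6.

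Of angiotensin II + AEC against vehicle + AEC, 0 of 91 genes had an unadjusted p under 0.05 and 0 an adjusted p under 0.05 in limma, beside 2.66% of all genes, and voom also gave 0 (2.68% of all genes). Among genes of at least 0.1 FPKM, the lowest limma p-values were those of Kcnk5 (log2 difference 0.35, exact permutation p = 0.0887), Kcnk10 (-0.18, exact p = 0.106), Kcnt2 (-0.17, exact p = 0.115) and Kcnh6 (-0.23, exact p = 0.219). Kcnk5 was above the vehicle + AEC mean in 6 of 6 mice, on 28 to 40 reads against 13 to 34. The fold change of Kcnh6 turned to 0.01 in the 18 libraries alone. Those of Kcnk5, Kcnk10 and Kcnt2 were 0.40, -0.10 and -0.09 there.

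The interaction tests whether the effect of angiotensin II differed between mice with and without cells. Among 91 genes, 1 (1.099%) had an unadjusted p under 0.05 in limma and 0 an adjusted p under 0.05, beside 2.54% of all genes. The gene was Kcnj15, with 0 to 5 reads in every mouse, which is too few for a fold change (limma adjusted p = 0.931). Among genes of at least 0.1 FPKM with the lowest p-values, Kcne1l had a difference of 0.56 (standard error 0.291), Kcnj13 of 0.39 (0.231), Kcng1 of 0.29 (0.187) and Kcnj16 of -0.32 (0.210), each with a limma adjusted p of 0.931. In the 18 libraries alone these were 0.26, 0.08, 0.06 and -0.17.

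The comparisons of angiotensin II with vehicle and of angiotensin II + AEC with vehicle + AEC share no mouse. The fold changes of 29 of 91 genes (31.9%) had the same sign in both, and with the library set as a term 53 of 91 (58.2%) did. The 6 libraries fall 2, 1, 1 and 2 into vehicle, angiotensin II, vehicle + AEC and angiotensin II + AEC. The same counts for the 2 effects of AEC, in vehicle and in angiotensin II, were 29 of 91 and 50 of 91 (54.9%).

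Summed levels of families did not separate the groups either. Voltage-gated pore genes summed to 344.0 ± 19.7 FPKM with vehicle, 343.7 ± 13.8 with angiotensin II, 351.5 ± 12.3 with vehicle + AEC and 340.5 ± 12.8 with angiotensin II + AEC (SD, n = 6 each). Calcium-activated genes summed to 19.2 ± 4.11, 20.6 ± 2.99, 20.46 ± 3.31 and 19.2 ± 4.11 FPKM in the same order, and inward rectifiers to 196.6 ± 9.07, 194.6 ± 3.60, 194.9 ± 11.2 and 197.4 ± 8.57. The means of the groups differed by less than the spread within them, but that spread holds the 2 sets of libraries. Calcium-activated genes summed to 20.2 to 23.3 FPKM in the 18 libraries and 13.8 to 14.6 in the 6. Voltage-gated pore genes summed to 343.9 to 365.9 and 316.4 to 328.9, while the sums of inward rectifiers overlapped. The sums were not tested for an effect of treatment.

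Genes that work with potassium channels were given by a list of 31 (the Kcnd partners Dpp6 and Dpp10, axonal clustering proteins, ATP-sensitive channel regulators, Hcn channels, sodium pump subunits and potassium-chloride cotransporters), of which 31 were tested. None had an unadjusted p under 0.05 by limma in any of the 5 comparisons, beside 2.21% to 2.66% of all genes tested. At an adjusted p under 0.05 there were 0, as among all genes tested. With 31 genes, a count of 0 does not set the partners apart from this background. Their median log2 fold change was 0.03 with angiotensin II against vehicle and -0.03 with angiotensin II + AEC against angiotensin II. The lowest p-values with angiotensin II were those of Hcn3, a hyperpolarisation-activated channel (log2 difference -0.12, limma adjusted p = 0.994), Cntn2 (0.05) and Lgi1 (0.06). For angiotensin II + AEC against angiotensin II Lrrc38 (0.19, limma adjusted p = 1) and Hcn3 (0.08) were among the lowest. For vehicle + AEC against vehicle they were Lrrc38, Cntn2 and Slc12a7, for angiotensin II + AEC against vehicle + AEC Slc12a7, Lrrc52 and Abcc8, and for the interaction Hcn3, Cntn2 and Adam22.

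Channel genes also differed between the 2 sets of libraries. The sets were defined after seeing the data, by the total FPKM of all genes, so their differences are described and not tested. Of the 67 genes with a mean of at least 1 FPKM, 34 (50.7%) had no overlap between the 6 and the 18 libraries, beside 51.0% of all genes of that level, and over all 91 tested it was 34 (37.4%), beside 27.5% of all genes tested. As a class the channel genes therefore separated the sets about as often as other genes of their level. Of the 34 genes, 13 were higher in the 6 libraries and 21 lower.

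Kcna1, which encodes a subunit of axonal potassium channels whose loss causes ataxia and seizures, differed most. In the 18 libraries it had 8.23 to 14.7 FPKM with a median of 11.01, and in the 6 libraries 0.852 to 1.15 with a median of 0.953. This held in each group: with vehicle, 4 mice had 8.23 to 12.9 FPKM and 2 had 0.925 and 1.14, with angiotensin II 5 had 9.27 to 11.1 and 1 had 0.852, with vehicle + AEC 5 had 8.26 to 14.7 and 1 had 0.981, and with angiotensin II + AEC 4 had 10.4 to 11.9 and 2 had 0.890 and 1.15. The gap lay within every group and no mouse fell between. The log2 difference between the sets was -3.35 (standard error 0.0904), and of 13649 genes with a mean of at least 1 FPKM, 49 including Kcna1 were as low or lower. The counts behind it were 68 to 1418 reads. With angiotensin II against vehicle its log2 fold change was 0.46 (standard error 0.852, exact permutation p = 0.835), and -0.10 with the library set as a term, while the interaction was -1.01 and 0.11.

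**Figure D3:**
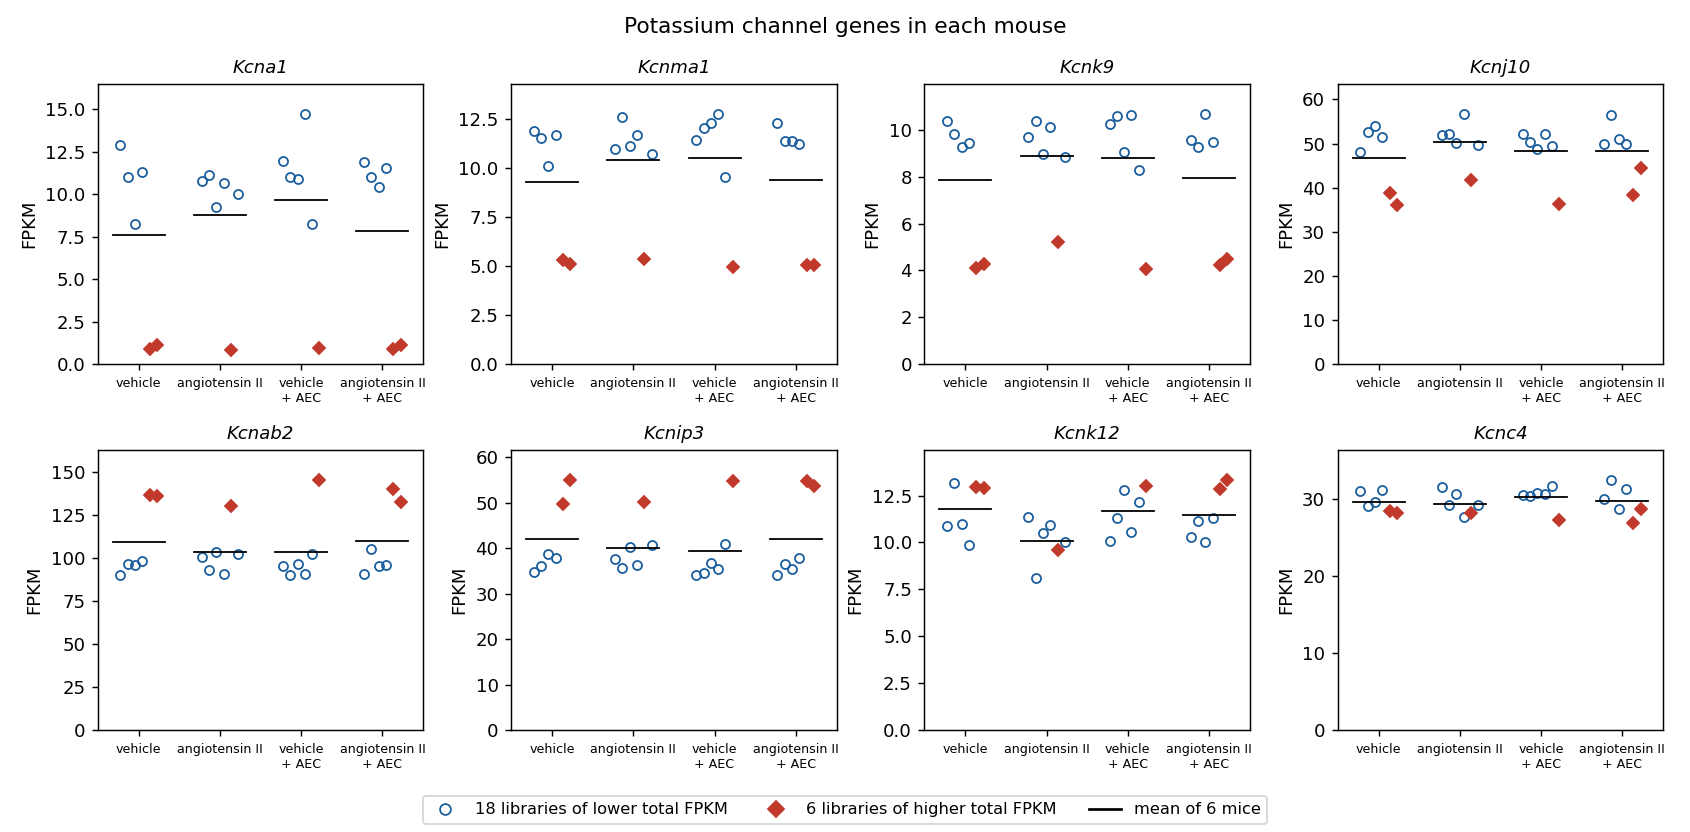
FPKM of 8 potassium channel genes in each of the 24 mice, by group. Open circles are the 18 libraries of lower total FPKM, filled diamonds the 6 of higher total FPKM, and bars group means. Kcna1, Kcnma1, Kcnk9 and Kcnj10 are lower and Kcnab2 and Kcnip3 higher in the 6 libraries in each group, while Kcnk12 and Kcnc4 overlap.

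Other genes lower in the 6 libraries were Kcnma1 (4.95 to 5.36 against 9.54 to 12.8 FPKM, log2 difference -1.14), Kcnk9 (-1.13), Kcnj6 (-1.20), Kcnn3 (-0.98), Kcnq3 (-0.80), Kcnd3 (-0.79) and Kcna2 (-0.78). Kcnj10 had 36.1 to 44.4 FPKM in the 6 libraries and 48.0 to 56.8 in the 18. Among genes higher in the 6 libraries, Kcnab2 had 129.97 to 145.5 FPKM against 90.1 to 104.9 (log2 difference 0.51), Kcnip3 0.53, Kcnip2 0.49, Kcnj4 0.41 and Kcne1l 0.70. By family, the median log2 difference was -0.34 for voltage-gated, -0.53 for calcium-activated, 0.07 for inward rectifier, 0.09 for two-pore and 0.22 for auxiliary genes, beside -0.07 for all genes tested. Among the 34, 10 of 13 voltage-gated and 3 of 3 calcium-activated genes were lower, and 4 of 5 auxiliary genes higher.

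Gene length and base composition moved with this difference. Across the 91 genes, Spearman's rho with the gene length used for FPKM was -0.56, and with the GC content of the longest coding transcript 0.53. Length and GC content were themselves related across these genes (rho -0.34), and genes are not independent replicates. Across all 27286 genes the rho with length was -0.24. Of the 30 longest genes (5287 to 16976 bases) 26 were lower in the 6 libraries, with a median of -0.40, and of the 30 shortest (1226 to 3404 bases) 8 were lower, with a median of 0.21. Kcna1, at 4780 bases and 50.1% GC, lay far below the other genes near its length. The mitochondrial share of fragments was 6.17% to 6.85% for the 6 libraries, above the 4.79% to 5.75% of the other 18. Mural cell markers summed to 117.9 to 135.2 FPKM in the 6 and 70.7 to 87.3 in the 18, and microglial markers to 109.2 to 125.3 and 73.4 to 89.0. Endothelial markers (74.5 to 91.7 against 47.2 to 64.1 FPKM), oligodendrocyte markers (978.6 to 1210 against 799.0 to 961.8) and meningeal markers (12.7 to 16.7 against 8.98 to 11.8) were also higher in the 6 without overlap. Markers of oligodendrocyte precursors were lower without overlap, at 4.29 to 5.16 FPKM against 5.74 to 7.08, and neuronal markers overlapped, at 482.6 to 512.9 against 493.2 to 542.2. These sums are in FPKM as deposited and were not rescaled. The total over all genes was itself higher in the 6 libraries (338334 to 348597 against 277116 to 298301 FPKM). Sums weigh the strongest markers most. By the mean log2 level of the markers, the sets overlapped for microglia. Vehicle replicate 5, of the 6, was at 3.77 and vehicle replicate 3, of the 18, at 3.79. Mural cell markers stayed apart on that scale, at 3.36 or more in the 6 and 3.05 or less in the 18. The part of length, composition and cell mixture in the difference was not tested.

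**Figure D4:**
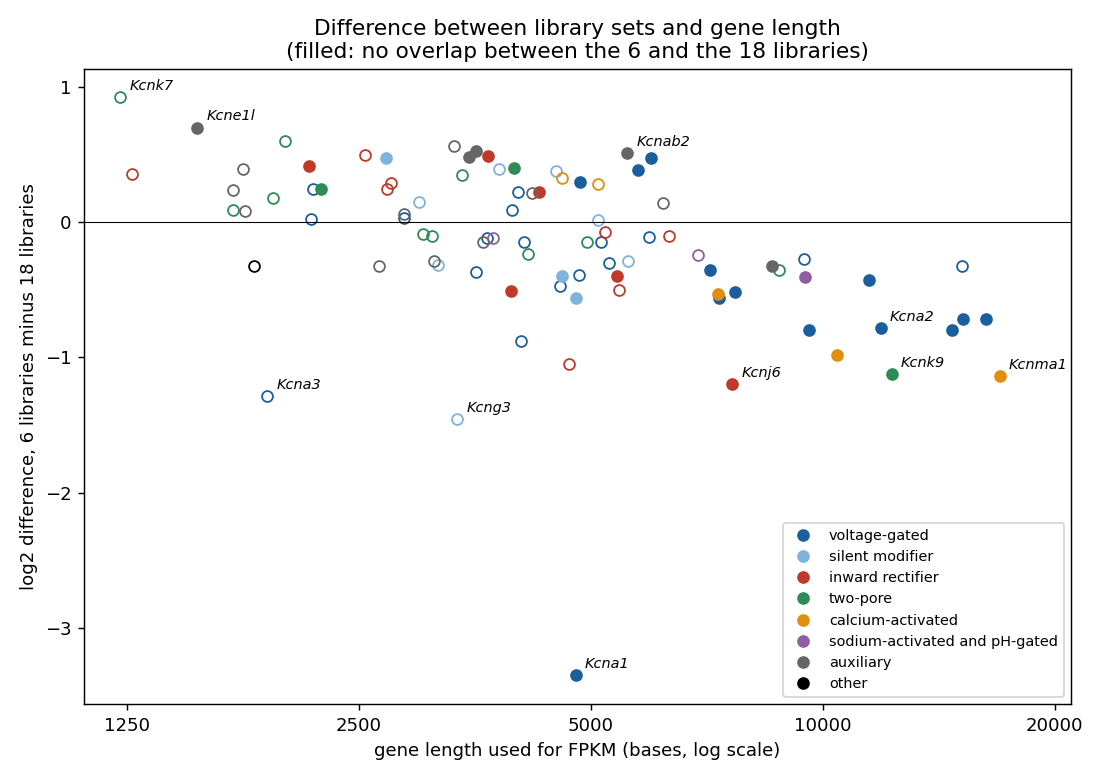
Log2 difference of FPKM + 0.1 between the 6 and the 18 libraries against gene length in bases (log scale), 1 circle per gene, coloured by family, for the 91 tested genes. Filled circles are the 34 genes with no overlap between the sets. Long genes such as Kcnma1 and Kcnk9 lie below 0, short genes such as Kcne1l above, and Kcna1 lies at -3.35.

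Direction depended on scaling for some genes. When FPKM was rescaled so that every mouse had the same total, the median of all genes moved from -0.07 to -0.23, and 41 channel genes did not overlap, 3 higher and 38 lower. Of the 34 genes, 24 kept both direction and separation, and Kcnj9 and Kcnk1 turned from higher to lower. Kcna1 was at -3.60, Kcnma1 at -1.40 and Kcnab2 at 0.24 on that scale. Rescaled by median ratios, 34 genes did not overlap, beside 27.4% of all genes tested, and 0 of the channel genes changed direction.

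Channel genes known from single cell types were set against markers of those types across mice, as deviations from the group mean, in 6 relations. The 24 mice fell into the 2 sets of libraries, and the relations are therefore given within them. In the 18 libraries, Kcne2, an auxiliary subunit of choroid plexus epithelium, moved with the choroid plexus markers Ttr, Folr1, Kl and Clic6 (Pearson's r = 0.63, permutation p = 0.00517, adjusted p = 0.0310, Spearman's rho = 0.61, permutation p = 0.00833, adjusted p = 0.04998). Without the 2 mice farthest from the median of the markers r was 0.40 (permutation p = 0.121), so the relation was not shown without those mice. Leaving them out also narrows the range of the markers, which can lower r, so how far the relation rests on them cannot be told. Kcne2 ranged from 1.40 to 4.28 FPKM over all mice, and the markers summed to 355.4 to 774.1 FPKM in the 18 libraries and 837.2 to 1125 in the 6. By the mean log2 level of the markers the sets overlapped, with vehicle replicate 6, of the 6, at 3.65 and vehicle replicate 3, of the 18, at 3.84. Kcnj13 had r = 0.27 (permutation p = 0.274, rho = 0.17, permutation p = 0.506) with the same markers.

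Kcnj16 had r = 0.51 with the astrocyte markers Aqp4, Gja1, Slc1a2, Slc1a3 and Aldoc in the 18 libraries (permutation p = 0.0311, adjusted p = 0.0932, rho = 0.43, permutation p = 0.0763), and 0.53 without the 2 farthest mice. Kcnj10 had r = 0.06 with them (permutation p = 0.810, rho = 0.09). The summed level of these markers was 626.6 to 682.1 FPKM in the 6 libraries and 560.1 to 626.6 in the 18, while their mean log2 deviation was lower in the 6. Kcnk13 had r = 0.23 with microglial markers (permutation p = 0.358, rho = 0.24) and Kcnj8 r = -0.14 with mural cell markers (permutation p = 0.579, rho = -0.19). In the 6 libraries r was 0.13 for Kcnj13, 0.52 for Kcne2, -0.16 for Kcnj8, 0.49 for Kcnj10 and 0.27 for Kcnj16, and 0.88 for Kcnk13 (exact permutation p = 0.0361, adjusted p = 0.217, rho = 0.54). None of the 6 relations passed the adjustment there.

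**Figure D5:**
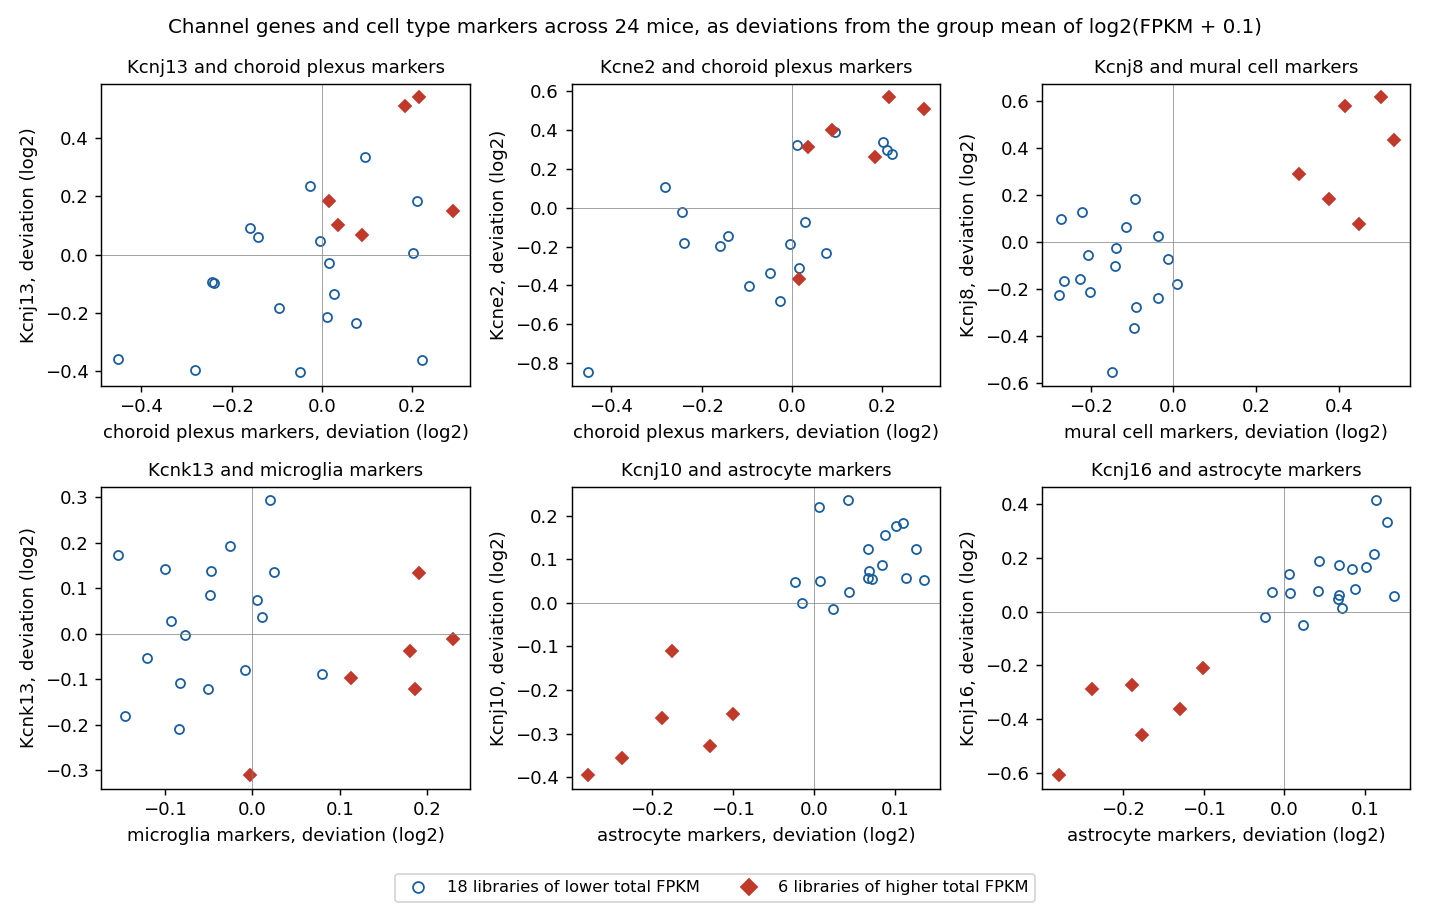
Deviation from the group mean of log2(FPKM + 0.1) for 6 channel genes (vertical axes) against the mean deviation of cell type markers (horizontal axes), 1 symbol per mouse. Open circles are the 18 libraries and filled diamonds the 6. The diamonds lie apart from the circles for astrocyte and mural cell markers, and for Kcne2 the lowest circle is also the one farthest left.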

How the data were processed

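RNA of 24 brain samples was measured, and groups were taken from the labels. The authors deposited 1 table of FPKM values per gene and mouse, with gene length and GRCm38 coordinates. Per the methods, poly-T-selected libraries were sequenced on an Illumina HiSeq, mapped to the Ensembl mouse genome, and tested with DESeq 1.10.1 (per the labels). The aligner, counting program, annotation release and use of strand are not given in the sources used here.

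Genes above 0 in at least 6 mice (27286) were tested with limma 3.58.1 in R 4.3.3 on log2(FPKM + 0.1), 4 groups in one fit, eBayes with trend, two-sided, with Benjamini-Hochberg adjustment over all genes tested. Fold changes on this scale understate those of low genes. Single genes were also tested by an exact permutation test of 6 against 6 mice, which cannot go below p = 0.00216, and relations with 100000 permutations. Reads were recovered within 0.1 of a whole number and depth limits cover counting error only. Named with statistics were the 4 genes of lowest p per comparison with a mean of at least 0.1 FPKM, any gene past the adjusted threshold, the genes of the 6 relations, and the 3 partners of lowest p. Some items that this rule covers are not reported here. The 2 highest genes of each family are given with their fold changes, and across alternatives as a count. Kcna1's fold changes, Kcnv2 and Kcnj15 were added after their values were seen. Members, lists and tests were chosen with earlier results of these data known. Alternatives were other pseudocounts and filters, compared groups only, a replicate block, median-ratio scaling, voom on recovered reads, the library set as a term, 18 libraries only, and each mouse left out. The comparison of library sets was added after seeing the data. Scripts were tested on simulated data. Python 3.11.15, pandas 2.3.3, numpy 2.4.6, scipy 1.17.1 and matplotlib 3.10.9 were used.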

Additional observations from a re-analysis of the deposited data

Results flagged for a closer look

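Mice far from the other 5 of their group, by the gap to the nearest mouse relative to the group's range (Dixon's 95% limit), were sought in 27 genes and 108 groups, and 17 were found. Chance would mark about 1 in 20 groups. Of the 17 values, 15 belong to the 6 libraries of high total FPKM. In vehicle + AEC replicate 6 these were Kcnab2 (145.5 FPKM), Kcnj4 (72.1), Kcnk3 (18.5), Kcnip3 (54.8) and Kcnj8 (2.74), all above the other mice, and Kcnj10 (36.4) and Kcnc1 (34.7), below them. In angiotensin II replicate 5 they were Kcnab2 (129.97 FPKM), Kcnip3 (50.1) and Kcne1l (7.30) above, and Kcnt1 (18.5), Kcnc1 (31.98) and Kcnma1 (5.36) below. Kcng4 was high in vehicle replicate 5 (21.5 FPKM) and Kcnk1 in angiotensin II + AEC replicate 5 (63.2 FPKM). The other 2 values are from vehicle + AEC replicate 4, of the 18 libraries: Kcnk13, known from microglia, at 4.36 FPKM against 3.28 to 3.53, and Kcns2, a silent modifier, at 4.43 FPKM against 3.41 to 3.78. The rule marks a single mouse, so 2 of the 6 libraries in the same group can hide each other. In vehicle, Kcnab2 had 136.1 and 136.8 FPKM in 2 such libraries against 90.1 to 98.5, and neither was marked. The rate of 1 in 20 supposes that the mice of a group do not fall into such sets.

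For Kcnj15 the interaction of angiotensin II and AEC had an unadjusted limma p of 0.0425 and an adjusted p of 0.931, so a difference was not shown. The fitted value, 0.30 on the log2(FPKM + 0.1) scale, comes from 0 to 5 reads per mouse and is not a fold change.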

How the results depend on the processing

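No member had an adjusted p under 0.05 in the treatment comparisons by the deposited FPKM, with the library set as a term, in the 18 libraries alone, by voom or with the replicate block. The same held for all 27286 genes tested. The count of channel genes at an unadjusted p under 0.05 moved in other settings, and the share of all genes at that threshold, given in parentheses, moved too. For angiotensin II against vehicle it was 1 (2.21%), and 3 with no filter (1.78%), 2 by voom (2.36%), 2 with the library set as a term (3.46%) and 2 in the 18 libraries (3.86%). For angiotensin II + AEC against angiotensin II it was 1 (2.54%), and 2 with a pseudocount of 0.01 (2.47%), 0 among genes of at least 1 FPKM (0.872%), 2 by voom (2.60%), 3 with the library set as a term (3.90%) and 3 in the 18 libraries (4.61%). For vehicle + AEC against vehicle it was 0 (2.41%), and 1 with a pseudocount of 0.01 (2.35%), 2 with no filter (1.77%), 1 by voom (2.36%), 1 with the library set (3.54%) and 1 in the 18 libraries (4.18%). For angiotensin II + AEC against vehicle + AEC it was 0 (2.66%), and 2 in the 18 libraries (4.27%). For the interaction it was 1 (2.54%), and 0 with a pseudocount of 1 (2.53%), 0 among genes of at least 1 FPKM (0.865%), 3 with the library set (3.41%) and 0 in the 18 libraries (4.20%). Of 91 genes, 1 is 1.099%, 2 are 2.20% and 3 are 3.30%. With no filter 94 genes were counted, of which 2 are 2.13% and 3 are 3.19%. With 1 mouse left out, these counts ranged from 0 to 3, 0 to 3, 0 to 1, 0 to 2 and 0 to 2 in the order given, and the share of all genes from 1.97% to 4.57%.

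With the replicate number as a block the counts were 5 (5.49% of channel genes, beside 3.48% of all genes), 4 (4.40% and 3.64%), 2 (2.20% and 3.80%), 0 (4.02% of all genes) and 5 (5.49% and 5.19%), with no adjusted p under 0.689 among channel genes. In the 4 comparisons with such genes, the lowest unadjusted limma p-values under the block were 0.00159 for Kcne1l with angiotensin II, 0.00344 for Kcnj16 with angiotensin II + AEC against angiotensin II, 0.00576 for Kcne1l with vehicle + AEC and 0.00147 for Kcne1l in the interaction. The sources used here do not say what a shared number marks. Same-numbered mice correlated by -0.0874 to 0.53, over 0.1 in 22 of 36 pairs. Over 0.1 were 3, 3, 4 and 4 of 6 pairs in the 4 comparisons of groups in the order given, and 6 of 6 between vehicle and angiotensin II + AEC, which were not compared. Of 12 mice in each comparison, 3, 5, 4 and 4 correlated best with their own number. Pairing was therefore not taken as given by the numbers. All 6 libraries of high total FPKM have the number 5 or 6, so the block also carries part of the library set. The log2 fold change of Kcnh6 in angiotensin II + AEC against vehicle + AEC reversed to 0.012 in the 18 libraries. Kcnk12 kept its direction with any mouse left out, at -0.27 to -0.16, and had an unadjusted p under 0.05 in 8 of 12 such fits (without angiotensin II replicate 2 or vehicle replicate 2, 5 or 6 it did not). In the same counts for the 15 most expressed genes, 1 (angiotensin II + AEC against vehicle + AEC, 18 libraries) differed from the 0 given.

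Over all 24 mice Pearson's r was 0.50 for Kcnj13, 0.70 for Kcne2, 0.72 for Kcnj8, -0.02 for Kcnk13, 0.88 for Kcnj10 and 0.91 for Kcnj16, values that span both sets of libraries. In the 18 libraries r was 0.27 for Kcnj13, -0.14 for Kcnj8, 0.23 for Kcnk13 and 0.061 for Kcnj10. In the 6 it was 0.13 for Kcnj13, 0.52 for Kcne2, -0.16 for Kcnj8, 0.88 for Kcnk13, 0.49 for Kcnj10 and 0.27 for Kcnj16. Without the 2 mice farthest by markers, r over 22 mice was 0.31 for Kcnj13, 0.67 for Kcne2 and 0.56 for Kcnj8. Over these mice it was -0.12 for Kcnk13, 0.78 for Kcnj10 and 0.88 for Kcnj16. The same was done in the 18 libraries, a setting chosen after seeing the data. There r was 0.36 for Kcnj13, 0.40 for Kcne2, -0.28 for Kcnj8, 0.58 for Kcnk13 and 0.21 for Kcnj10. The cause of these changes was not tested. Depth limits the genes with few reads: 3 or fewer cannot be told from 0, and 11 of 94 genes had a mean under 0.1 FPKM.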
